A study of Mus musculus with 2 samples.

Results

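The 10 chemokine genes Ccl17, Ccl22, Ccl5, Ccl3, Ccl4, Ccl6, Ccl9, Cxcl16, Cxcl9 and Cxcl10 were followed across migratory dendritic cells (DCs) of mouse lymph nodes. They were chosen by name as chemokines that DCs make, with earlier results of these data known. All 10 were present among the 18049 genes of the expression files. Of 28 further chemokine genes on a separate list, 17 were present. The cells came from C57BL/6N mice of 6 to 12 weeks of age, either unimmunized (naive) or given 5 µg ovalbumin with 50 µg of papain, a protease used as a type 2 adjuvant, in both rear footpads 1 day earlier. Live MHCII-high CD11c+ B220- cells were sorted and profiled by CITEseq, which reads mRNA and 12 surface proteins from the same cell. Each condition was 1 library, and the number of mice pooled was not given in the sources used here. The methods state that popliteal nodes were taken from papain mice, whereas pooled skin-draining nodes served for the naive library, so the node site and the immunization cannot be told apart. The protocol in the labels instead names popliteal nodes for both groups.

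Chemokines are small secreted proteins that draw leukocytes along gradients by engaging G protein-coupled receptors. Migratory DCs, which reach the lymph node from the skin along CCR7 ligands, use them inside the node to bring T cells into contact. The 10 genes fall into groups by their known roles: CCL17 and CCL22 bind CCR4, a receptor of Th2 cells, regulatory T cells and skin-homing T cells, CCL5, CCL3 and CCL4 are inflammatory attractants of T cells and monocytes, CCL6 and CCL9 are rodent ligands of CCR1, CXCL16 is a membrane-anchored ligand of CXCR6 that proteases can release, and CXCL9 and CXCL10 are interferon-induced ligands of CXCR3.

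The naive library held 3471 cells with a median of 13764 UMIs (unique molecular identifiers, 1 for each captured mRNA molecule), and the papain library held 7596 cells with a median of 14738. A class from the authors' antibody clusters was given for 3042 naive and 7306 papain cells, and 2 cell barcodes occurred in both libraries. The classes were CD301b-low, CD301b-int and CD301b-high conventional type 2 DCs (cDC2s; 658, 659 and 707 naive cells and 1470, 1827 and 2893 papain cells), conventional type 1 DCs (cDC1s; 578 and 235 cells) and Langerhans cells (LCs; 440 and 881 cells). CD326 antibody signal was highest in LCs (median 3.42 naive and 3.40 papain, natural log scale of the authors) and XCR1 signal was highest in cDC1s (1.26 and 1.13). The CD326 signal of cDC1s differed between the libraries (1.63 naive and 0.44 papain). Whether this class holds the same kinds of cells in both was not tested. The mRNA of Epcam, which encodes CD326, stood at 102 CPM (UMIs of a gene for each 1000000 UMIs) in naive and 156 CPM in papain LCs, and Xcr1 stood at 16.9 and 9.44 CPM in cDC1s. T cell marker mRNA, summed over 4 genes, reached 146 CPM in naive cDC1s and lay between 8.36 and 43.7 CPM in the other 9 combinations of class and library. Macrophage and monocyte marker mRNA, summed over 5 genes, ranged from 9.69 to 80.3 CPM over the naive classes and from 2.93 to 59.7 CPM over the papain classes. The 3 neutrophil markers and the 3 mast cell and basophil markers were not among the genes with values, so these cells could not be looked for.

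The genes lie on 3 chromosomes (RefSeq annotation, GRCm38.p6). Ccl22 (chromosome 8, 94745684 to 94751388) and Ccl17 (chromosome 8, 94809380 to 94812038) lie close together, as do Cxcl9 (chromosome 5, 92321331 to 92328079) and Cxcl10 (chromosome 5, 92346638 to 92348889). Ccl5, Ccl9, Ccl6, Ccl3 and Ccl4 lie between 83525778 and 83664683 on chromosome 11, and Cxcl16 lies on the same chromosome at 70454389 to 70459984. The annotated spans of Ccl3 and Ccl4 overlap, and how the counting split reads there was not given in the sources used here. RefSeq start-site windows were on hand for 7 of the 10 genes. The windows of Ccl17 and Ccl22 are shown because both are CCR4 ligands whose level in LCs was past 2-fold higher in the papain library, and that of Cxcl10 because it is the member window that holds the interferon response letters. Each is the 250 bases before a RefSeq transcript start, 5′ to 3′ on the strand of the gene, with capitals marking the matched letters. That start lies at the edge of the annotated gene for Ccl22 and Cxcl10 and inside the annotated gene for Ccl17.
Ccl17, chr8:94810203-94810452, plus strand: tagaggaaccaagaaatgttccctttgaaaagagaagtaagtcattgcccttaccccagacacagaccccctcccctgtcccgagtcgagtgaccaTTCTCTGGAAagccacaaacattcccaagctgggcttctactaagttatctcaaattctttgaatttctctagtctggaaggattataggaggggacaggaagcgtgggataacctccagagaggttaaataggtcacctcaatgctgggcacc
Ccl22, chr8:94745434-94745683, plus strand: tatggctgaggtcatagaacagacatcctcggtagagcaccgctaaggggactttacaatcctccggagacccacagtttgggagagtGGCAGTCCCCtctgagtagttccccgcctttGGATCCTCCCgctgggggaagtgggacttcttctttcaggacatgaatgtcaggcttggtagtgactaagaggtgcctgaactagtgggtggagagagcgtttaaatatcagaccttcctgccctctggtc
Cxcl10, chr5:92348890-92349139, minus strand: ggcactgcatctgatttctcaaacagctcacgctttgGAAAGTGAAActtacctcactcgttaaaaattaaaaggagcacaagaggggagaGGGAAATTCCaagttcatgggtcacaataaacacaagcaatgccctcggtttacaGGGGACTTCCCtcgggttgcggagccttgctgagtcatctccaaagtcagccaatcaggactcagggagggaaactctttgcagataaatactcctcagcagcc
Letters of 3 motifs were searched on both strands. The STAT6-like letters TTC and GAA with 4 free bases between them, a palindrome like the one bound by the transcription factor of the IL-4 receptor, occurred once in the Ccl17 window, 154 to 145 bases upstream of the start. They occurred in 1 of the 7 member windows and in 5.85% of all 32851 windows of 250 bases. The NF-kB-like letters GGG and CC with 5 free bases between them, which read GG and CCC on the other strand, occurred in the Ccl22, Cxcl10, Cxcl9 and Ccl9 windows, 4 of 7, against 45.8% of all windows. In the Cxcl10 window 2 of its 3 matches overlap, at 104 to 95 and 103 to 94 bases upstream. The interferon response letters, GAAA and GAAA with 2 free bases between them, occurred in Cxcl10 alone among the 7 windows, 213 to 204 bases upstream, and in 2.98% of all windows. A match describes the letters and is not a shown binding site.

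Ccl5, which encodes an attractant of effector T cells, monocytes and eosinophils, was found in 98.2% to 100% of the cells of each class. Droplets without antibody data that carried T cell transcripts and little MHC class II mRNA served as a background for free RNA, and 68.0% of 203 such naive and 65.6% of 209 such papain droplets held a Ccl5 UMI, at levels of 241 and 280 CPM and median depths of 7556 and 7086 UMIs. The naive droplets held T cell and natural killer cell marker mRNA at 2621 and 160 CPM, so chemokine mRNA of these cells cannot be told apart from free RNA there. Shares in the droplets are given without thinning, and the droplets were shallower at the median than every class. In the naive library the Ccl5 level was 6205 CPM in CD301b-low, 5389 in CD301b-int and 4775 in CD301b-high cDC2s, 11737 in LCs and 30496 in cDC1s (95% exact Poisson interval 30385 to 30607 for cDC1s). Papain levels were 7520, 7993 and 7514 CPM in the same cDC2 classes, 6290 in LCs and 19343 in cDC1s (interval 19188 to 19499). cDC1s therefore held the highest Ccl5 level in both libraries, while LCs were second among the naive classes and lowest among the papain classes. Over single naive cDC1s the median was 26199 CPM with quartiles of 11279 and 46409, and 1 cell carried 3172 Ccl5 UMIs. These intervals, and all intervals given here, cover counting error only, since cells of 1 library are not replicates.
The ratio of cDC1s to all cDC2s was 2.50 on the log2 scale in the naive library (2.49 to 2.50, exact conditional binomial interval) and 1.34 in the papain library (1.32 to 1.35). T cells and natural killer cells also make Ccl5, and 13.5% of naive cDC1s held a Cd3e or Trac UMI. Without those cells naive cDC1s stood at 33217 CPM and the ratio to cDC2s without such cells was 2.64. The part of natural killer cells and of free RNA in the Ccl5 level was not tested.
Set against naive, the Ccl5 level of papain cDC1s was at -0.66 on the log2 scale (-0.67 to -0.64) and that of papain LCs at -0.90 (-0.91 to -0.89), whereas the cDC2 classes were higher, by 0.28, 0.57 and 0.65 from CD301b-low to CD301b-high. None of these 5 ratios reached 2-fold. Without naive mRNA cluster 1.5, a group of cells described further on, the value of CD301b-low cDC2s turned to -0.09 (-0.10 to -0.08).

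Summed over the 10 genes, chemokine UMIs made up 0.901%, 0.858% and 0.861% of all UMIs in naive CD301b-low, -int and -high cDC2s, 1.41% in LCs and 3.23% in cDC1s. Papain shares were 1.05%, 1.21% and 1.16% in the cDC2 classes, 1.09% in LCs and 2.17% in cDC1s. Ccl5 supplied most of these UMIs, from 55.5% in naive CD301b-high cDC2s to 94.3% in naive cDC1s, and from 57.9% in LCs to 89.1% in cDC1s of the papain library. In 1 naive cDC1 the 10 genes together took 18.4% of the cell's UMIs.

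Ccl17, the ligand also known as TARC, was highest in CD301b-high cDC2s of both libraries and lowest in cDC1s. In the naive library it stood at 277 CPM (267 to 288) in CD301b-low, 322 (311 to 333) in CD301b-int and 418 (406 to 430) in CD301b-high cDC2s, at 237 (224 to 251) in LCs and at 61.6 (56.7 to 66.8) in cDC1s. Among papain cells it stood at 385 CPM (376 to 394), 804 (794 to 815) and 847 (839 to 855) in the cDC2 classes, at 805 (792 to 818) in LCs and at 121 (109 to 134) in cDC1s. The 5 naive values are each apart by more than their intervals, and in the papain library only LCs and CD301b-int cDC2s overlap.
Ccl17 was higher in the papain library in every class, by 0.47 on the log2 scale in CD301b-low, 1.32 (1.27 to 1.37) in CD301b-int and 1.02 (0.98 to 1.06) in CD301b-high cDC2s, 0.97 (0.78 to 1.16) in cDC1s and 1.76 (1.68 to 1.85) in LCs. The values of CD301b-int and CD301b-high cDC2s and of LCs reached 2-fold. That of CD301b-high cDC2s was at the border and came to 0.93 relative to the median of all genes and to 0.93 without naive mRNA cluster 1.5. Cells with at least 1 Ccl17 UMI made up 35.1%, 48.6% and 55.4% of the naive and 49.6%, 75.6% and 76.7% of the papain cDC2 classes from low to high. With every cell thinned to 8392 UMIs the shares were 31.0%, 43.4% and 46.8% against 49.3%, 69.9% and 69.9%, so the papain shares remained above the naive ones at equal depth. In LCs the share was 40.0% naive and 79.7% papain, and 39.7% and 77.2% after thinning. In the background droplets it was 2.46% naive and 5.26% papain.

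Ccl22, the second CCR4 ligand, followed the same order over the naive classes, with 1271 CPM (1248 to 1295) in CD301b-low, 1600 (1575 to 1624) in CD301b-int and 2229 (2201 to 2256) in CD301b-high cDC2s, 1134 (1106 to 1163) in LCs and 856 (837 to 875) in cDC1s. In the papain library the cDC2 classes stood at 1398 (1381 to 1415), 2117 (2100 to 2133) and 2035 (2023 to 2048) CPM, cDC1s at 858 (825 to 891) and LCs at 2730 (2706 to 2754), the highest of all. Papain LCs were above naive LCs by 1.27 on the log2 scale (1.23 to 1.31). In the other classes the ratio lay within 2-fold, at 0.14 and 0.40 in CD301b-low and CD301b-int cDC2s, -0.13 in CD301b-high cDC2s and 0.00 (-0.06 to 0.07) in cDC1s. The value of CD301b-low cDC2s turned to -0.29 (-0.32 to -0.26) without naive mRNA cluster 1.5. The 2 CCR4 ligands thus differed in CD301b-high cDC2s, where the papain level of Ccl17 was past 2-fold and that of Ccl22 was slightly below naive, although this difference was not tested. Ccl22 was found in 74.6% to 92.3% of the cells of the naive classes and 78.7% to 97.5% of those of the papain classes, against 26.6% and 37.8% of the background droplets. The median cell held 754 CPM in naive and 975 CPM in papain CD301b-high cDC2s, and 507 and 1544 CPM in LCs.

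**Figure D1:**
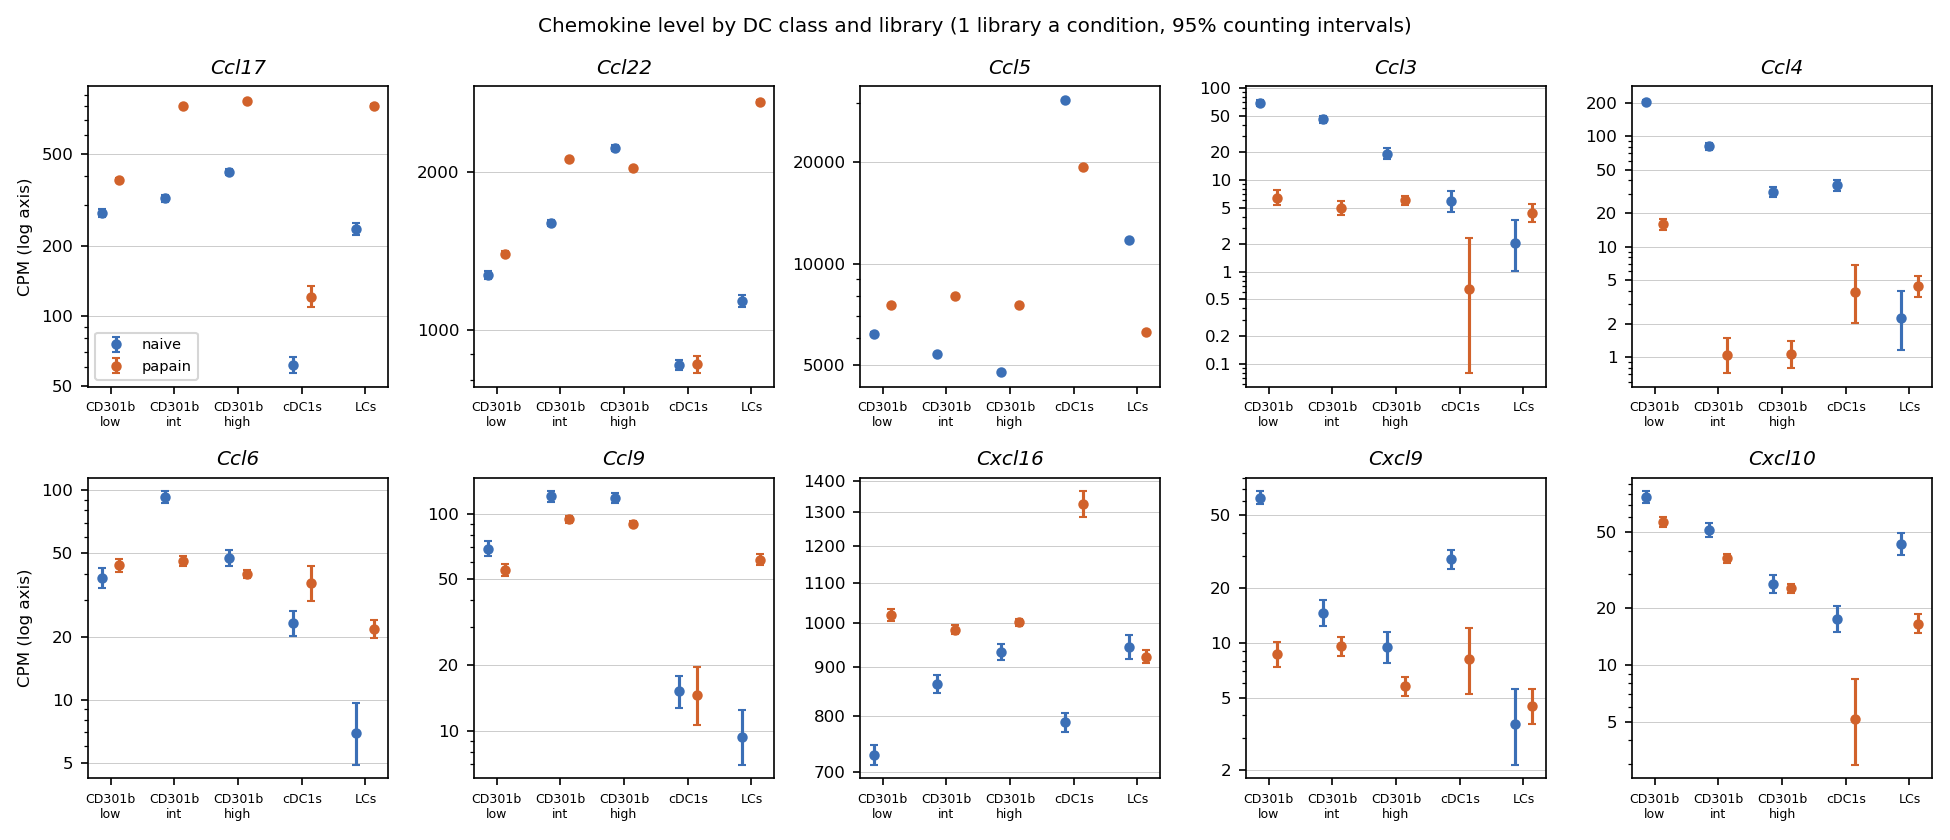
Level of each chemokine gene in CPM (UMIs per 1000000 UMIs, log axis that differs by gene) in the 5 DC classes, for the naive library (blue) and the papain library (orange), each point being 1 library with its 95% counting interval. Ccl5 was highest in cDC1s (30496 CPM naive), Ccl17 and Ccl22 of LCs were higher in the papain library (805 and 2730 CPM), and Ccl3 and Ccl4 of cDC2s were highest in naive CD301b-low cells (69.2 and 205 CPM).

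Cxcl16, whose product acts both as an adhesion molecule and, once cleaved, as an attractant, varied least. Its naive levels were 731 CPM in CD301b-low, 864 in CD301b-int and 932 in CD301b-high cDC2s, 789 in cDC1s and 944 in LCs. Its papain levels were 1019, 984 and 1001 CPM in the cDC2 classes, 1326 in cDC1s and 922 in LCs, a span from lowest to highest of 1.44-fold against 1.29-fold in the naive library. A UMI of it was held by 93.9% to 99.3% of the cells of a naive class and by 98.8% to 99.7% of those of a papain class, against 12.3% and 14.8% of the background droplets. The papain level was higher by 0.48 on the log2 scale in CD301b-low cDC2s and by 0.75 (0.69 to 0.80) in cDC1s, and the remaining classes lay between -0.03 and 0.19, so no class reached 2-fold.

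Ccl9 and Ccl6, the CCR1 ligands, were highest in cDC2s in both libraries, and their level in LCs was past 2-fold higher in the papain library. Ccl9 stood at 68.9 CPM (63.7 to 74.5), 120 (113 to 127) and 118 (112 to 124) in naive CD301b-low, -int and -high cDC2s, at 15.2 in cDC1s and at 9.41 (6.98 to 12.4) in LCs. Among papain cells Ccl9 stood at 55.0, 94.0 and 89.9 CPM in the cDC2 classes, at 14.6 in cDC1s and at 61.4 (57.8 to 65.1) in LCs. Papain LCs were therefore 2.71 above naive LCs on the log2 scale (2.30 to 3.14), while the other 4 classes lay between -0.39 and -0.05. The share of LCs with a Ccl9 UMI was 4.77% naive and 29.1% papain, and 3.93% and 19.8% after thinning, against 0.985% and 0.957% of the background droplets.
Ccl6 stood at 38.1 CPM, 92.8 and 47.4 in the naive cDC2 classes from low to high, at 23.2 in cDC1s and at 6.96 in LCs. Its papain levels were 43.8, 46.0 and 39.7 CPM in the cDC2 classes, 36.1 in cDC1s and 21.7 in LCs. LCs were higher in the papain library by 1.64 on the log2 scale (1.16 to 2.17), and the share with a UMI went from 3.64% to 16.7% (2.72% to 9.58% after thinning), against 0.493% and 1.44% of the background droplets. CD301b-int cDC2s were at -1.01 (-1.13 to -0.89), but 1 naive cell of that class held 442 Ccl6 UMIs, 46.1% of the total. Without the 1 cell of each library with the most Ccl6 UMIs, an alternative chosen after seeing the data, the levels were 50.3 CPM naive and 43.7 CPM papain and the ratio was -0.20. A single cell also held 61.8% of the Ccl6 UMIs of naive cDC1s, which stood at 8.89 CPM without it. Under the same alternative papain cDC1s stood at 31.2 CPM and were higher by 1.81 on the log2 scale, past 2-fold as in LCs.

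Ccl3 and Ccl4, the MIP-1 chemokines that draw monocytes, natural killer cells and activated T cells, were genes of few cells. Ccl3 stood at 69.2 CPM (64.0 to 74.8) in CD301b-low, 45.9 (41.8 to 50.2) in CD301b-int and 19.4 (16.9 to 22.1) in CD301b-high cDC2s of the naive library, at 5.90 in cDC1s and at 2.07 in LCs. In the papain library it lay between 0.651 CPM in cDC1s, 2 UMIs in all, and 6.43 CPM in CD301b-low cDC2s. Papain against naive it was at -3.43 on the log2 scale (-3.73 to -3.14) in CD301b-low, -3.21 (-3.48 to -2.94) in CD301b-int and -1.69 (-1.94 to -1.43) in CD301b-high cDC2s. Ccl3 was found in 10.0%, 7.59% and 6.08% of the naive and 2.24%, 3.83% and 3.28% of the papain cDC2 classes, against 1.48% and 0.478% of the background droplets.
With all cells kept, Ccl4 differed more than Ccl3 over the naive cDC2 classes, from 205 CPM (196 to 215) in CD301b-low through 80.9 (75.5 to 86.6) in CD301b-int to 31.6 (28.4 to 35.0) in CD301b-high cells, with 35.9 in cDC1s and 2.26 in LCs. Its papain levels were 15.9, 1.05 and 1.07 CPM in the cDC2 classes, 3.91 in cDC1s and 4.41 in LCs. The ratios were -3.69 (-3.87 to -3.51) in CD301b-low, -6.26 (-6.83 to -5.74) in CD301b-int and -4.89 (-5.33 to -4.47) in CD301b-high cDC2s and -3.20 (-4.17 to -2.38) in cDC1s. In papain CD301b-low cDC2s 1 cell held 63.8% of the Ccl4 UMIs, and the class stood at 5.77 CPM without it. Cells holding a UMI of other cell types (T, B or natural killer cell markers or Siglech, a plasmacytoid DC marker) were also left out. Naive Ccl4 then stood at 75.3 CPM in CD301b-low and 35.7 CPM in CD301b-high cells, and naive Ccl3 at 48.7 and 21.4 CPM. These classes thus differed no more in Ccl4 than in Ccl3. Naive cDC1s then stood at 9.06 CPM of Ccl4, under the 10 CPM limit for a call. Ccl4 was found in 11.9%, 7.13% and 4.67% of the naive cDC2 classes from low to high. Its share in naive LCs was 1.14%, near the 0.985% of naive background droplets, and it was found in 0 of 209 papain background droplets. Among cDC2s, macrophage and monocyte marker mRNA was likewise higher in the naive library, at 80.3, 61.7 and 37.0 CPM in the naive and 28.1, 14.1 and 15.7 CPM in the papain classes from low to high. In LCs the same sum was 62.3 CPM naive and 59.7 CPM papain, although naive LCs had the lowest level of both genes. The part of this mRNA in the differences was not tested.

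Cxcl9 and Cxcl10, which draw CXCR3+ T cells, were likewise highest in naive CD301b-low cDC2s. Cxcl9 stood there at 62.4 CPM (57.4 to 67.7), against 14.6 in CD301b-int and 9.46 in CD301b-high cDC2s, 28.6 (25.3 to 32.3) in cDC1s and 3.57 in LCs. Its papain levels were between 4.52 CPM in LCs and 9.59 in CD301b-int cDC2s, with intervals of neighbouring classes that all overlapped. Papain against naive it was at -2.85 on the log2 scale (-3.12 to -2.60) in CD301b-low cDC2s and -1.82 (-2.47 to -1.22) in cDC1s, and within 2-fold in the other 3 classes. Cxcl9 was found in 2.50% to 7.44% of the cells of the naive and 3.18% to 3.70% of those of the papain classes, against 0.985% of naive and 0 of 209 papain background droplets. A single naive CD301b-low cell carried 204 Cxcl9 UMIs, 35.4% of the class total, and the class stood at 40.4 CPM without it.
Cxcl10 was more widely found, in 19.5%, 19.4% and 16.4% of the naive and 13.3%, 14.5% and 13.8% of the papain cDC2 classes from low to high, against 1.97% and 1.91% of the background droplets. Its naive levels were 76.6 CPM (71.1 to 82.5), 51.3 (47.0 to 55.8) and 26.8 (23.9 to 30.0) in those classes, 17.5 in cDC1s and 43.5 (38.0 to 49.4) in LCs. Its papain levels were 56.9 CPM (53.5 to 60.5), 36.4 (34.3 to 38.7) and 25.3 (24.0 to 26.8) in the cDC2 classes, 5.21 in cDC1s and 16.5 (14.7 to 18.5) in LCs. The gradient from CD301b-low to CD301b-high was thus present in both libraries, with no overlap of the intervals. Papain against naive Cxcl10 was at -1.75 on the log2 scale (-2.59 to -1.01) in cDC1s and at -1.40 (-1.65 to -1.14) in LCs. Without cells holding a UMI of other cell types the cDC1 value was -0.57.

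The 10 genes were counted together in each class, calling a gene past 2-fold where the levels differed at least 2-fold and the higher was at least 10 CPM. Since the genes were chosen with earlier results of these data known, their counts beside the share of all genes are a description. In CD301b-low cDC2s 3 of 10 genes were past 2-fold between the papain and the naive library (Ccl3, Ccl4 and Cxcl9), against 9.19% of all genes. In CD301b-int cDC2s 4 of 10 were past it (Ccl17, Ccl3, Ccl4 and Ccl6), against 7.28% of all genes. In CD301b-high cDC2s 3 of the 9 genes with enough level were past it (Ccl17, Ccl3 and Ccl4), against 6.05%. In cDC1s 3 of 9 were past it (Ccl4, Cxcl9 and Cxcl10), against 8.04%. In LCs 5 of 7 were past it, against 7.07%, namely 4 higher (Ccl17, Ccl22, Ccl6 and Ccl9), against 4.35% of all genes, and 1 lower (Cxcl10), against 2.72%. The median log2 ratio of the members was 1.27 in LCs where that of all genes was 0.06, and it lay between -0.42 and -0.05 in the other classes, where that of all genes lay between 0.01 and 0.09.

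**Figure D2:**
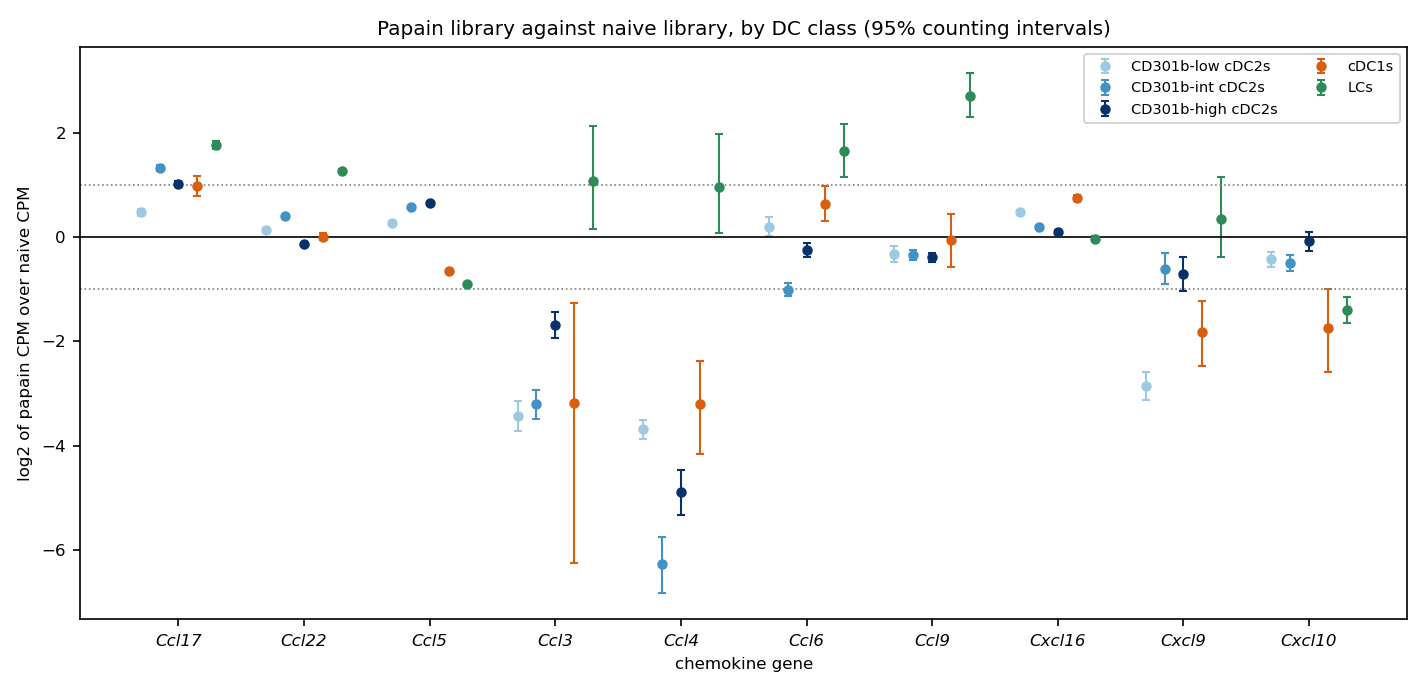
Log2 of the papain level over the naive level of each chemokine gene in the 5 DC classes, with 95% counting intervals and dotted lines at a 2-fold difference in either direction. LCs (green) were above the upper line for Ccl17, Ccl22, Ccl6 and Ccl9 (1.27 to 2.71), and cDC2s (blue) were below the lower line for Ccl3 and Ccl4 (-1.69 to -6.26). Ccl3, Ccl4 and Cxcl9 of LCs, Cxcl9 of CD301b-high cDC2s and Ccl3 of cDC1s are drawn although they were under 10 CPM in both libraries.

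Within a library, CD301b-high and CD301b-low cDC2s were compared as the surface protein that names the classes marks the subset the study is about. In the naive library 4 of 10 genes were past 2-fold, against 4.39% of all genes. All 4 were lower in CD301b-high cells, against 3.56% of all genes, at -1.84 for Ccl3, -2.70 for Ccl4, -2.72 for Cxcl9 and -1.52 for Cxcl10. Without cells holding a UMI of other cell types Ccl3 was at -1.18 and Ccl4 at -1.07. Ccl22, Ccl9 and Ccl17 were higher in CD301b-high cells by 0.81, 0.77 and 0.59 on the log2 scale, short of 2-fold. Without the naive mRNA cluster 1.5 the count was 1, with Ccl3 at -0.86, Ccl4 at 0.53 and Cxcl9, then under 10 CPM, at -2.29. In the papain library 3 of 8 were past 2-fold, against 2.34% of all genes, with Ccl17 higher by 1.14 (1.10 to 1.17) and Ccl4 and Cxcl10 lower, at -3.90 and -1.17. Without the 1 CD301b-low cell described above, Ccl4 of that class stood at 5.77 CPM, under the 10 CPM limit but still above the 1.07 CPM of CD301b-high cells. Without cells holding a UMI of other cell types the Ccl4 value was -1.02, between 1.03 and 2.08 CPM. Ccl5 was at 0.00 there (-0.01 to 0.01), and Ccl9 at 0.71 and Ccl22 at 0.54 had the same sign as in the naive library. With cells split at the tertiles of the CD301b antibody signal over both libraries, Ccl17 was at 0.75 and Cxcl10 at -0.98, and the papain count was 1.

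cDC1s, which take up dead cells and present to CD8 T cells, differed from cDC2s in most members. In the naive library 8 of 10 genes were past 2-fold, against 12.5% of all genes. Ccl5 was higher in cDC1s, and Ccl17 (-2.48), Ccl22 (-1.02), Ccl3 (-2.87), Ccl4 (-1.47), Ccl6 (-1.37), Ccl9 (-2.78) and Cxcl10 (-1.51) were lower. Without cluster 1.5 Ccl4 and Ccl6 turned to 1.46 and 0.37. Ccl22 was at the border, at -0.92 as a mean over cells, -0.94 relative to the median of all genes and -0.95 without the deepest 5% of cells. Among papain cells 5 of 7 were past it, against 10.9%, with Ccl5 again higher and Ccl17 (-2.63), Ccl22 (-1.18), Ccl9 (-2.53) and Cxcl10 (-2.73) lower. All genes tested had a median of -0.12 in that comparison. Cxcl16 was within 2-fold in both libraries, at -0.11 and 0.41.
LCs differed from cDC2s in 6 of 10 genes in the naive library, against 10.6% of all genes, with Ccl5 higher by 1.12 (1.11 to 1.13) and Ccl3 (-4.38), Ccl4 (-5.46), Ccl6 (-3.10), Ccl9 (-3.47) and Cxcl9 (-2.91) lower. Without cluster 1.5 the count was 4, with Ccl5 at 0.93 and Cxcl9 at -0.74. In the papain library 1 of 7 was past it, against 4.82% of all genes, namely Cxcl10 at -1.06 (-1.24 to -0.89). Ccl17, Ccl22 and Ccl9 of papain LCs were at 0.10, 0.49 and -0.47 relative to papain cDC2s. The papain and naive comparisons use different libraries, and the change in this count was not tested.

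The authors also grouped cDC2s by mRNA within each library, into 7 naive clusters (1.1 to 1.7) and 9 papain clusters (2.1 to 2.9), and since the clusters were made from mRNA the levels over them are a description. Ccl17 ranged from 63.8 CPM in cluster 1.5 to 701 in cluster 1.1 of the naive library and from 98.3 in cluster 2.7 to 1296 in cluster 2.1 of the papain library. Cluster 1.1 was 26.5% of naive cDC2s and held 69.9% of their Ccl17 UMIs and 62.4% of their Ccl22 UMIs. Cluster 2.1 was 23.1% of papain cDC2s and held 46.9% of their Ccl17 UMIs and 24.8% of their Ccl22 UMIs. Both are also among the deeper clusters, with medians of 18800.5 and 18323 UMIs a cell.
Ccl22 had its highest levels elsewhere, 5544 CPM in the 55 cells of cluster 1.6 and 3379 CPM in the 316 cells of cluster 2.8, where Ccl17 stood at 503 and 778 CPM. Ccl5 was highest in clusters 1.4 (13556 CPM) and 2.9 (14528 CPM), in which CD301b-low cells were 64.5% and 69.0% of the cells. Cxcl10 was highest in clusters 1.7 (151 CPM) and 2.9 (173 CPM). Cluster 1.7, of 50 cells, also held T cell, natural killer cell and B cell marker mRNA at 659, 389 and 241 CPM, and cluster 2.9 had the highest T cell (74.8 CPM) and macrophage and monocyte (47.0 CPM) marker sums of the papain clusters. Their part in the chemokine levels was not tested.

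**Figure D3:**
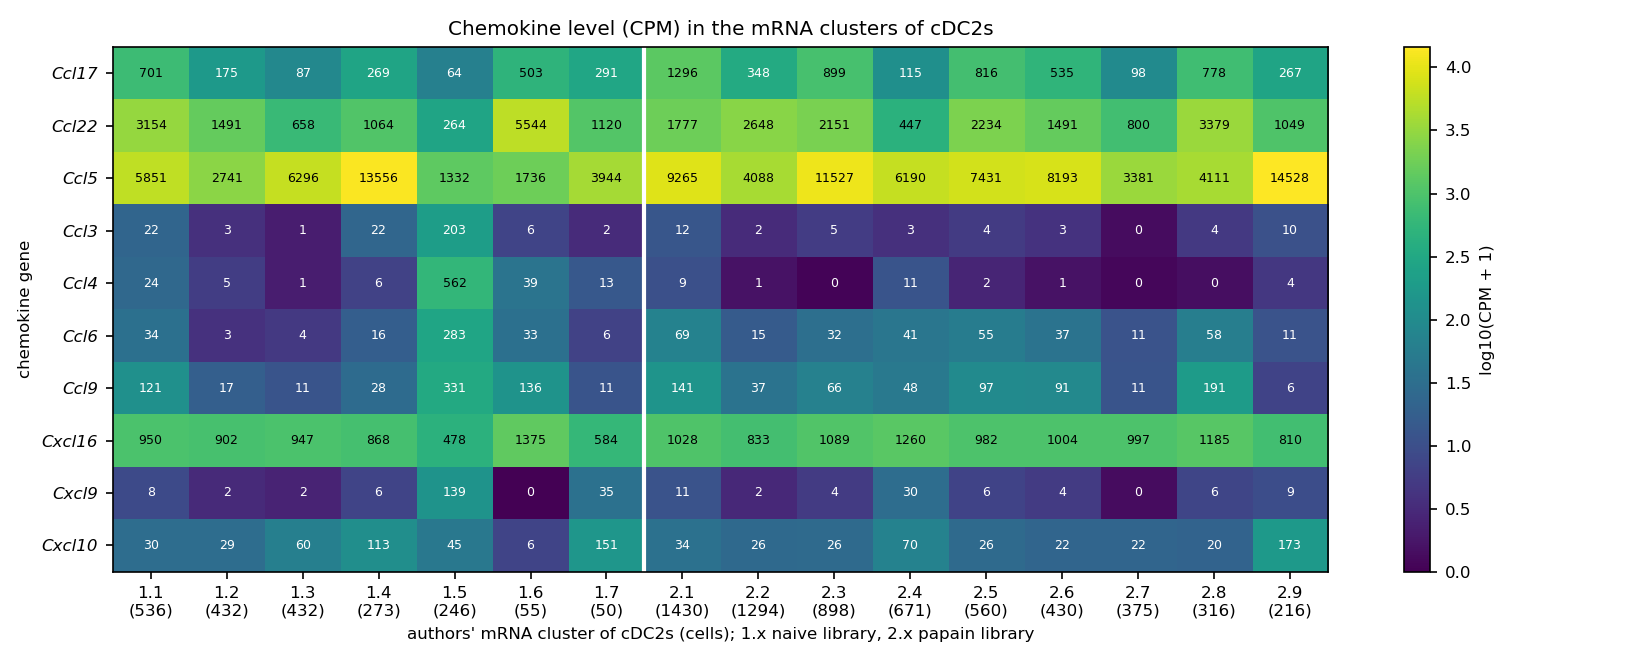
Level of each chemokine gene (number in each field, CPM; colour, log10 of CPM + 1) in the authors' mRNA clusters of cDC2s, with the number of cells under each cluster name, naive clusters on the left of the white line and papain clusters on the right. Ccl3, Ccl4 and Cxcl9 peak in cluster 1.5 (203, 562 and 139 CPM), Ccl17 in clusters 1.1 and 2.1 (701 and 1296 CPM) and Ccl5 in clusters 1.4 and 2.9 (13556 and 14528 CPM).

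Cluster 1.5 held most of the Ccl4, Cxcl9, Ccl6 and Ccl3 mRNA of naive cDC2s. It was 246 of 2024 naive cDC2s, 12.2%, made up of 143 CD301b-low, 64 CD301b-int and 39 CD301b-high cells, or 21.7%, 9.71% and 5.52% of those classes. It held 89.0% of the Ccl4, 81.3% of the Cxcl9, 74.7% of the Ccl6, 74.4% of the Ccl3 and 50.3% of the Ccl9 UMIs of naive cDC2s. Its levels were 562 CPM for Ccl4, 283 for Ccl6, 203 for Ccl3, 139 for Cxcl9 and 331 for Ccl9, while Ccl22 at 264 CPM and Cxcl16 at 478 CPM were at their naive minimum there. The migratory DC genes were present in it, with Ccr7 at 1389 CPM and Fscn1, which encodes an actin-bundling protein of mature DCs, at 410 CPM, as was the MHC class II gene H2-Ab1 at 9317 CPM. The 5 macrophage and monocyte markers summed to 294 CPM, against 5.46 to 44.1 CPM in the other naive and 6.60 to 47.0 CPM in the papain clusters, with Csf1r at 137 CPM and C1qa at 64.5 CPM. The part of these markers in the chemokine levels was not tested.
The papain and naive levels were therefore also compared without the cells of cluster 1.5, an alternative chosen after seeing the data that removes cells from the naive library only. Ccl3 of naive cDC2s was then 17.6, 13.6 and 9.70 CPM from CD301b-low to CD301b-high, and the ratios were -1.46, -1.45 and -0.69. Ccl4 was then 11.5, 9.90 and 16.6 CPM, and the ratios were 0.47, -3.23 and -3.96, so the sign turned in CD301b-low cells. Cxcl9 was then 8.82, 8.77 and 1.81 CPM, and the ratios were -0.03, 0.13 and 1.68, the last between levels under 10 CPM. The lower papain level of Ccl3 thus stayed past 2-fold in CD301b-low and CD301b-int cells, that of Ccl4 stayed past it in CD301b-high cells and, although the naive level fell just short of 10 CPM, was also over 2-fold in CD301b-int cells, and that of Cxcl9 in CD301b-low cells was within 2-fold. Ccl6 was then 17.2, 17.3 and 19.0 CPM, and papain cells were higher by 1.35, 1.41 and 1.06 instead of lower or within 2-fold. Ccl9 was then 40.8, 58.4 and 76.9 CPM, with ratios of 0.43, 0.69 and 0.22. Ccl5 ratios came to -0.09, 0.40 and 0.56 and Ccl22 ratios to -0.29, 0.23 and -0.22. Ccl17 ratios came to 0.06, 1.16 and 0.93, and Cxcl10 ratios to -0.57, -0.54 and -0.12. The differences within the naive library moved too, with Ccl4 of CD301b-high against CD301b-low cells at 0.53.

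**Figure D4:**
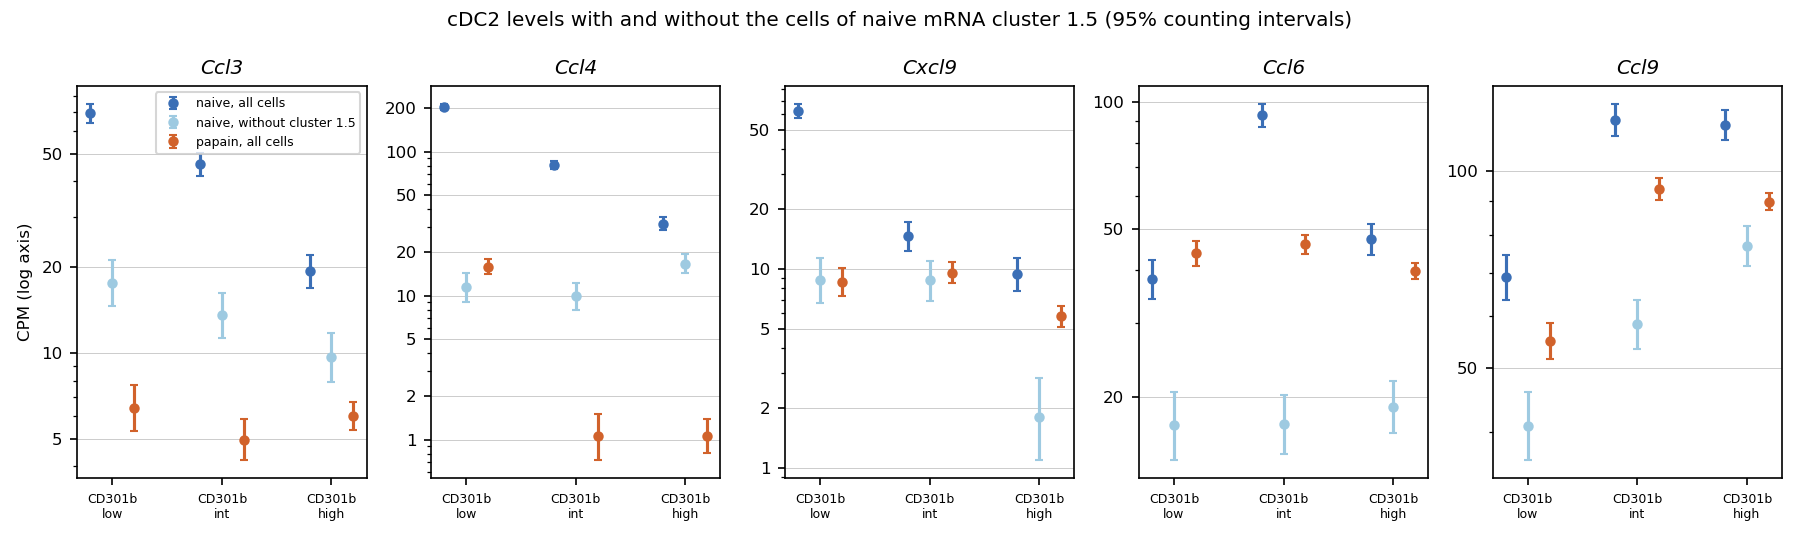
Level (CPM, log axis that differs by gene, 95% counting intervals) of Ccl3, Ccl4, Cxcl9, Ccl6 and Ccl9 in the 3 cDC2 classes for all naive cells (dark blue), naive cells without mRNA cluster 1.5 (light blue) and all papain cells (orange). Without the cluster Ccl4 of naive CD301b-low cells went from 205 to 11.5 CPM, below the papain level of 15.9 CPM, and Ccl6 of all 3 classes went below the papain level.

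The genes differed in how their UMIs were spread over cells. Cells were ranked by UMIs of the gene, so differences in depth between cells raise the shares below. A gene found in 10% of cells or fewer has a share of 100% whatever its levels, which holds for most values of Ccl3 and Cxcl9. The 10% of cells with the most UMIs held 21.6% to 25.0% of the Cxcl16 UMIs and 24.5% to 44.4% of the Ccl5 UMIs of a class. For Ccl17 they held 51.8% to 84.8%, for Ccl4 99.4% to 100%, and for Ccl3 and Cxcl9 100% in each class of both libraries. Of the cDC2s with Ccl17, 95.9% of naive and 96.0% of papain cells also held Ccl22, against 84.3% and 91.7% of all cDC2s. Their Pearson correlation of log2 values over single cDC2s was 0.48 in 2024 naive and 0.43 in 6190 papain cells. It was 0.45 and 0.37 for Ccl6 and Ccl9, 0.45 and 0.20 for Ccl3 and Ccl4, 0.12 and 0.16 for Cxcl9 and Cxcl10, and 0.11 and 0.05 for Ccl5 and Ccl22. Cells of 1 library share its depth and its free RNA, cells that held both genes of a pair were deeper than the rest (15802 against 12953 UMIs for naive Ccl17 and Ccl22), and no test was made.

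**Figure D5:**
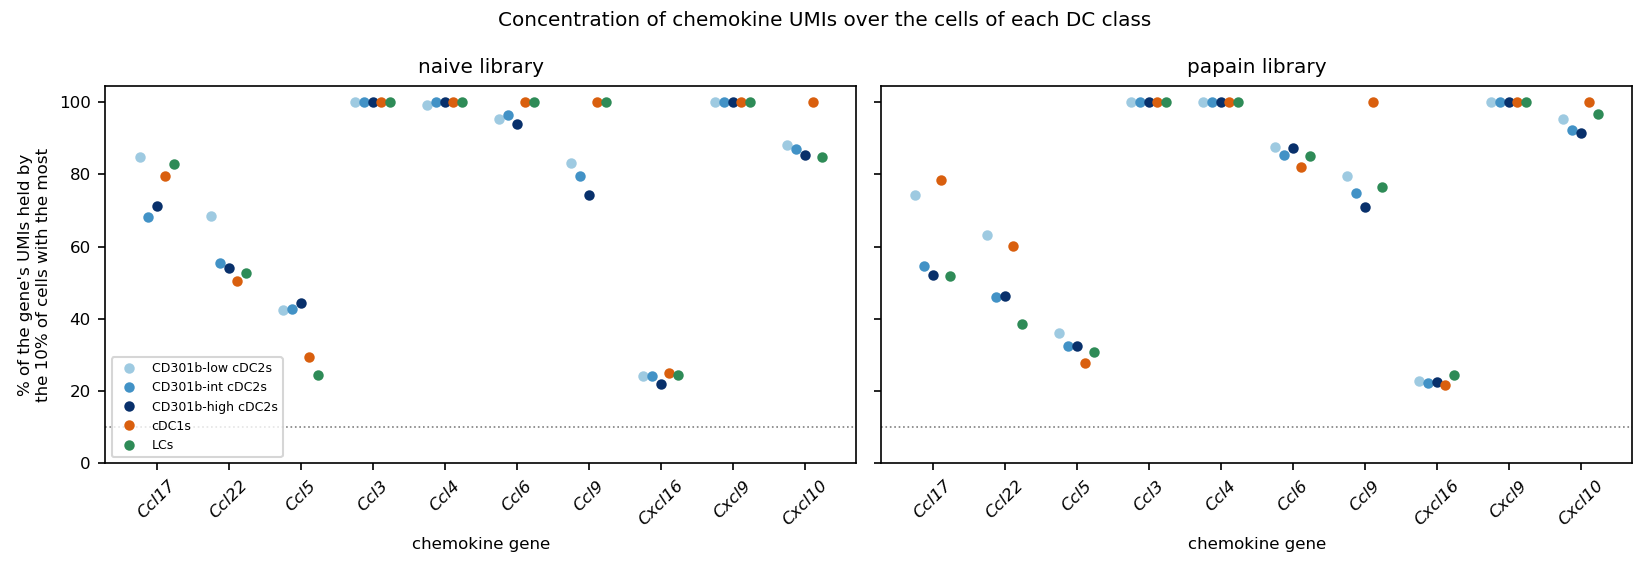
Percent of a chemokine gene's UMIs held by the 10% of cells with the most, in each DC class of the naive (left) and the papain library (right). The dotted line at 10% is the value if every cell held the same number of UMIs of the gene. Differences in depth between cells raise the values, and a gene found in 10% of cells or fewer lies at 100% by construction. Cxcl16 lies lowest (21.6% to 25.0%), followed by Ccl5 (24.5% to 44.4%), and Ccl3 and Cxcl9 lie at 100%.

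Over all cells with a class, 3042 naive and 7306 papain, the genes most like each member were sought among the 2274 genes of at least 50 CPM by the mean of the 2 libraries' correlations, as a description without a test. For Ccl17 they were Ccl22 (0.44), S100a10 (0.36) and Cd40 (0.32), and for Ccl22 they were Ccl17 (0.44), Fscn1 (0.42) and Serpinb6b (0.39). For Ccl5 they were AW112010 (0.54), Pla2g16 (0.52) and Epsti1 (0.45), and for Cxcl16 Marcks (0.34), Id2 (0.34) and Anxa3 (0.32). For Ccl6 they were Ccl9 (0.40) and Ifitm3 (0.21), and for Ccl9 Cotl1 (0.30), Lcp1 (0.28) and Sirpa (0.26). No gene reached 0.2 for Ccl3, Ccl4, Cxcl9 or Cxcl10.

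Among the other chemokine genes, 3 of the 17 present reached 50 CPM in a class. Cxcl1, a neutrophil attractant, had naive levels of 106, 227 and 291 CPM from CD301b-low to CD301b-high cDC2s, 56.2 in cDC1s and 157 in LCs, and papain levels of 172, 414, 514, 45.2 and 309 CPM in the same order. Cxcl2, its close relative, stood at 125, 164, 199, 43.9 and 146 CPM naive and 98.4, 172, 178, 19.5 and 296 CPM papain. Cx3cl1, the membrane-bound fractalkine, was highest in LCs, at 58.7 CPM naive and 30.9 CPM papain. The log2 ratio of CD301b-high to CD301b-low cells was 1.46 naive and 1.58 papain for Cxcl1.
Of the other chemokines with at least 10 CPM, none was higher in the papain library past 2-fold in the 4 classes other than LCs, where Cxcl2 was (1.02). Those lower past 2-fold were Ccl2 (-4.87) and Ccl7 (-8.90, -14.21 to -6.41, on 1 papain UMI) of 5 in CD301b-low cDC2s, Ccl2 (-4.73) of 5 in CD301b-int cDC2s, Ccl2 (-4.92) and Ccl24 (-1.33) of 6 in CD301b-high cDC2s, Cxcl2 (-1.17) and Cx3cl1 (-1.32) of 4 in cDC1s, and Ccl19 (-3.14) and Ccl24 (-2.98) of 6 in LCs. Of all genes, 9.19%, 7.28%, 6.05%, 8.04% and 7.07% were past 2-fold in either direction in these classes in the same order. The median ratio of the other chemokines tested lay between -1.05 in cDC1s and -0.01 in LCs.

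The receptor genes listed beside the 10 chemokines were scarce in these cells apart from Ccrl2, an atypical receptor that holds chemoattractants at the cell surface. Whether its product binds any of the 10 was not tested. Of 8 receptor genes 6 were present. Ccrl2 stood at 240, 154 and 136 CPM in the naive cDC2 classes from low to high, 166 in cDC1s and 408 in LCs, and at 72.2, 66.3, 80.3, 82.3 and 128 CPM in the papain classes in the same order. It was lower past 2-fold in 4 of the 5 classes, at -1.73, -1.21, -1.01 and -1.67 in CD301b-low and CD301b-int cDC2s, cDC1s and LCs. Cxcr6, the receptor of CXCL16, was also lower past 2-fold in CD301b-low cDC2s (-6.12, -8.42 to -4.54) and cDC1s (-5.10, -7.38 to -3.54), on 3 papain UMIs in each. CD301b-low cDC2s and cDC1s are the naive classes with the most T cell marker mRNA, and the source of Cxcr6 was not tested.
Of the proteases that act on these chemokines, Adam10, which sheds CXCL16, lay at 38.4 to 75.0 CPM over the naive classes and within 2-fold between libraries in each class. Dpp4, which trims the amino end of several chemokines, was higher in papain cDC1s by 1.62, at 86.6 against 28.1 CPM. Of 10 genes of the signals known to induce the members, 2 were higher past 2-fold in each of the 5 classes, and none was lower, with list medians of 0.16 to 0.31, against 6.05% to 9.19% of all genes past 2-fold in either direction. These were the interferon-induced genes Isg15, at 26.9 to 49.4 CPM naive and 159 to 336 CPM papain, and Irf7, with ratios from 1.01 in CD301b-low to 3.90 in CD301b-high cDC2s. The naive levels of Irf7 already differed, with CD301b-high against CD301b-low cDC2s at -3.69 on the log2 scale. In the papain library Irf7 was within 2-fold between these 2 classes. Cxcl10 and Cxcl9, whose products are also interferon-induced, were not above naive past 2-fold in any of the 5 classes.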

How the data were processed

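Cells were sorted and sequenced by the authors as 2 droplet libraries, and the submitters' processing notes name Cell Ranger 3.0.1, Partek and the mm10 build. The authors deposited mRNA values as log2(CPM + 1) per cell and antibody values on a natural log scale, with their antibody class and mRNA cluster for each cell. Since 1 UMI is worth a fixed step in each cell, UMIs were recovered from the deposited log2 values, and every value (100%) of 50 UMIs or fewer was whole within 0.02 UMIs. The libraries held 53095046 (naive) and 122133401 (papain) UMIs in all. A gene's UMIs were summed over the cells of a class and divided by all UMIs of the same cells, with no pseudocount, to give levels in CPM. Levels have exact Poisson, shares Clopper-Pearson and ratios exact conditional binomial intervals at 95%, for counting error only. No p-value is given because each condition is 1 library and cells are not replicates. A gene counted as past 2-fold at a difference of at least 2-fold with 10 CPM or more in the higher group, and the share of all such genes past 2-fold is the background. Shares were recomputed with each cell thinned to 8392 UMIs, the 10th percentile, without shallower cells. No doublet caller was run, and the deepest 5% of cells, cells with a Cd3e or Trac UMI and cells with a UMI of other cell types were left out in turn as alternatives. Other cell types here means T cell, B cell and natural killer cell markers and the plasmacytoid DC marker Siglech. Cells with macrophage and monocyte marker UMIs were not left out by it. Named genes were the 10 members, other chemokines of at least 50 CPM, list genes past 2-fold, and the 3 genes most like a member with a mean correlation of at least 0.2. The members and lists were chosen with earlier results of these data known. Python 3.11.15, NumPy 2.4.6, SciPy 1.17.1, pandas 2.3.3 and matplotlib 3.10.9 were used, and the ratio step was tested on simulated data.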

Additional observations from a re-analysis of the deposited data

Results flagged for a closer look

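Ccl6 moved in opposite directions between the libraries in 2 classes, at 1.64 in LCs and -1.01 in CD301b-int cDC2s on the log2 scale of papain over naive, a difference of 2.65. The difference was not tested, since each condition is 1 library. Without the 1 cell of each library with the most Ccl6 UMIs the values were 1.97 and -0.20, and that of cDC1s was 1.81. Without naive mRNA cluster 1.5 the value of CD301b-int cDC2s was 1.41, the same direction as in LCs.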

How the results depend on the processing

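Of 107 recomputed counts of members past 2-fold, 101 stayed within 1.5 times the reported count. That measure takes the size of a count only, and the genes behind it can differ. Among these 101, the count of CD301b-low cDC2s between the libraries went from 3 to 2 without cluster 1.5. Ccl4 and Cxcl9 were lost there, and Ccl6 came in as higher (1.35). The naive count of cDC1s against cDC2s stayed at 8 without the cluster, although Ccl4 turned sign and Ccl6 dropped out. The count of CD301b-high against CD301b-low cDC2s went from 4 to 1 in the naive library without mRNA cluster 1.5. In the papain library it went from 3 to 1 without cells with a UMI of other cell types and from 3 to 1 with CD301b tertiles. The count of LCs against cDC2s in the papain library went from 1 to 0 with a pseudocount of 10 CPM, from 1 to 0 without cells with a Cd3e or Trac UMI, and from 1 to 2 without the deepest 5% of cells. Of 413 recomputed values of ratios past 2-fold, 376 stayed past it in the same direction. 5 of the ratios turned sign, each without cluster 1.5: Ccl4 (0.47) and Ccl6 (1.41) of papain against naive in CD301b-low and CD301b-int cDC2s, Ccl4 of CD301b-high against CD301b-low naive cells (0.53), and Ccl4 (1.46) and Ccl6 (0.37) of naive cDC1s against cDC2s. Ccl6 of CD301b-int cDC2s was at -0.35 as a mean over cells and -0.27 without the deepest 5% of cells. Ccl5 of naive LCs against cDC2s was at 0.93 and Cxcl9 at -0.74 without cluster 1.5. With a pseudocount of 10 CPM, Ccl6 of LCs was at 0.90, Ccl3 of CD301b-high cDC2s at -0.87 and Cxcl10 of cDC1s at -0.85 between the libraries. Ccl17 of papain CD301b-high against CD301b-low cells was at 0.96 without cells with a UMI of other cell types. The causes were not tested. No paired analysis was possible because each condition is 1 library and carries no replicate number. Genes of few UMIs, Ccl3, Ccl4 and Cxcl9 above all, are limited by depth and by single cells.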
